A study of Caenorhabditis elegans with 6 samples.

Results

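The small piRNA cluster of chromosome IV in Caenorhabditis elegans is described here through the counts of its precursor windows. Its members were chosen by position alone: every window of the deposited table on chromosome IV whose start lay from 4500000 to below 7000000, on either strand, which gave 2839 of 15703 windows. The nearest windows outside these limits, 21ur-14085 on the left and 21ur-14807 on the right, had 0 counts in both columns, as did the outermost members, 21ur-9960 and 21ur-9962. Capped small RNA had been sequenced from isolated germ nuclei of strain YL701, in which a nucleosome-remodelling ATPase of the ISWI type, ISW-1, carries eGFP and an auxin-inducible degron tag (AID). The strain also carries wrdSi51, a transgene on chromosome II in which the mex-5 promoter, active in the germ line, drives the plant F-box protein TIR1. Both groups had this genotype and had grown for 45 h at 22 °C. The auxin group then spent 3 h on 1 mM auxin plates, and the ETOH group 3 h on ethanol plates. Each group had 3 libraries, which the authors merged before counting, so there was 1 column per group and no replicate error. The differences below therefore have no test between groups, and their 95% intervals cover counting error only. No group that received auxin without a degron was analysed here, so auxin itself and the loss of ISW-1 cannot be told apart, and the loss of the protein could not be checked in these counts.

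Worm Piwi-interacting RNAs, the 21U-RNAs, are small RNAs of the germ line that load onto the Argonaute PRG-1 and recognise foreign and some endogenous transcripts. Most are transcribed by RNA polymerase II as separate short capped precursors, each from its own minimal promoter with an upstream sequence motif, and are then trimmed at both ends. A complex that includes PRDE-1, SNPC-4, TOFU-4 and TOFU-5, the upstream sequence transcription complex named in the series' title, occupies these promoters. The genes are concentrated in a small and a large cluster on chromosome IV, where they lie between and inside protein-coding genes, many of them in introns. The comparison of auxin with ETOH asked whether the amount of precursor depends on ISW-1.

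Each member window was 24 bases long. A piRNA of the same name was annotated nearby on the same strand of WBcel235 for 2815 members, and the other 24 were not located. The annotated piRNA started 9 to 13 bases (median 12) beyond the window start on both strands. In those coordinates its 5′ base lay inside the window, at position 10 to 14, for all 1355 located plus-strand members, and 6 to 10 bases outside it for all 1460 located minus-strand members. The shares with a count were nevertheless close, at 307 of 1355 and 309 of 1460. Whether the windows were written in the coordinates of the aligned reads was not tested. The positions given below are those of the annotated piRNA on WBcel235. Per the file headers, an alignment that fell in more than 1 window was counted for none, whereas reads aligned at several places were kept. Of the members, 957 (33.7%) overlapped another window on their strand and 22 of these (2.30%) had a count, against 597 of 1882 without overlap (31.7%). Over all windows, 40.3% overlapped another and 3.62% of these had a count, against 3802 of 9374 without overlap (40.6%).

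The members held fewer counts in auxin than in ETOH, 20362 against 22993, a raw ratio of 0.886 (0.869 to 0.902). The same raw ratio was 0.870 (0.865 to 0.874) in the large cluster, the windows of chromosome IV from 13 Mb. Outside both clusters it was 0.527 (0.523 to 0.532), and 0.875 (0.862 to 0.888) without 21ur-2844, a window of chromosome IV that held more counts than any other in the ETOH column and lies outside the clusters. The members made up 5.79% of auxin counts (5.71 to 5.87) and 4.99% of ETOH counts (4.92 to 5.05). Without 21ur-2844 these shares were 6.65% and 6.54%. By total counts, the small cluster thus stood close to the rest of the table once that window was set aside.

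A few precursors supplied most of these counts. The most abundant member, 21ur-5622, held 39.1% of the members' auxin counts and 41.0% of their ETOH counts. The 10 most abundant members together held 79.6% and 77.9%. Without 21ur-5622 the members' raw ratio was 0.914 (0.892 to 0.937), and without all 10 it was 0.819 (0.786 to 0.853).

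Of these 10 precursors, 9 had fewer raw counts in auxin and 1 had more, with raw ratios from 0.821 to 1.17. Fewer were also seen in 85.8% of the 330 windows of the whole table with 100 or more counts. Once scaled as described below, all 10 ratios lay above 1, from 1.29 to 1.83. The window of 21ur-5622 (IV:6281641-6281661, plus strand), antisense to an intron of srv-32, a serpentine receptor gene, had 7963 counts in auxin and 9427 in ETOH, a raw ratio of 0.845 (0.820 to 0.870). The next, 21ur-4280 (IV:5075442-5075462, plus strand), lay 3179 bases from the nearest protein-coding gene and had 2032 counts in auxin and 2096 in ETOH, a ratio of 0.969 (0.912 to 1.03). The window of 21ur-6923 (IV:4868097-4868117, minus strand), 387 bases from the chemoreceptor gene str-172, had 1497 and 1506 counts in auxin and ETOH. For these 2 windows and for 21ur-3737 the interval of the raw ratio held 1.

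The window of 21ur-3737 (IV:6169660-6169680, plus strand) is in an intron of unc-77, which encodes a sodium leak channel subunit, on the opposite strand. It had 1377 counts in auxin and 1379 in ETOH, a ratio of 0.999 (0.926 to 1.08). The window of 21ur-6392 (IV:4886436-4886456), in an intron of the chemoreceptor gene str-166 on the opposite strand, had 934 counts in auxin and 998 in ETOH. The one abundant member with more counts in auxin was 21ur-6167 (IV:4845922-4845942, minus strand), in an intron of the lipid flippase gene tat-2 on the same strand, with 717 counts in auxin and 615 in ETOH, a ratio of 1.17 (1.05 to 1.30). The other 4, 21ur-5992, 21ur-8027, 21ur-6012 and 21ur-254, had 261 to 546 counts in auxin and 318 to 588 in ETOH, with ratios from 0.821 to 0.929. Of these, only 21ur-254 had an interval wholly below 1 (0.694 to 0.970).

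**Figure D1:**
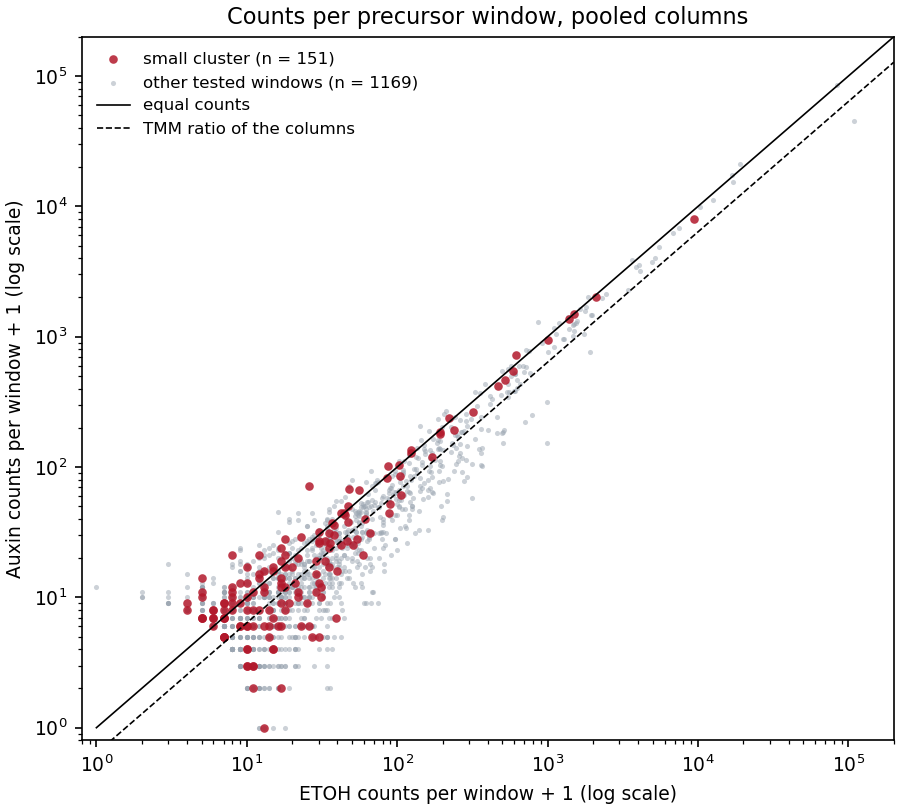
Counts in the pooled auxin column (vertical axis) against the pooled ETOH column (horizontal axis), each plus 1 on a log scale, for the 151 tested windows of the small cluster and the 1169 other tested windows. The solid line marks equal counts and the dashed line the ratio of 0.637 between the columns by TMM (trimmed mean of M-values); the abundant members lie close to the solid line, whereas members with few counts scatter to both sides of the dashed one.

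Ratios of single windows were examined in the 151 members with at least 10 counts over both columns, called tested members here, which held 96.8% of the members' counts in each column. At the edge of this minimum, 9 members had exactly 10 counts over both columns (46 in auxin, 44 in ETOH in all), and 17 had exactly 9 (51 and 102). Counts of a tested member ran from 0 to 7963 in auxin (median 12) and from 3 to 9427 in ETOH (median 17). Fewer raw counts in auxin were seen in 95 tested members (62.9%), against 78.5% of the 1320 tested windows of the whole table. More were seen in 45 (29.8%), against 18.3%, and 11 were equal. Tested members had a median raw log2 ratio of −0.25, set beside −0.66 over all tested windows and −0.74 in the large cluster.

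A raw difference of at least 2-fold was less common than over the table in the lower direction. At least 2-fold fewer counts in auxin were found in 40 of 151 members (26.5%), against 38.9% of all tested windows, and at least 2-fold more in 7 (4.64%), against 4.02%. For the raw ratio, the whole interval was below 1 in 38 members (25.2%), against 40.7% of all tested windows, and wholly above 1 in 4 (2.65%), against 2.42%. Whether the cluster differed from the rest beyond the spread between libraries could not be tested with pooled columns.

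After TMM scaling, which takes the auxin column as 0.637 times the size of the ETOH one and so expresses each window relative to the typical precursor, the members were called equally often in both directions. With a prior count of 2, 14 of 151 were at least 2-fold lower in auxin (9.27%), against 14.8% of all tested windows, and 14 were at least 2-fold higher (9.27%), against 8.41%. The split depended on the scaling, with 35 lower and 5 higher without scaling, and 19 lower and 9 higher with column totals. Over all 1320 tested windows these settings gave 443 lower and 37 higher, and 258 lower and 70 higher. The prior count was kept in both. The median scaled log2 ratio of the members was 0.36, with quartiles at −0.31 and 0.70, beside −0.01 over all tested windows and −0.08 in the large cluster. The interval of the scaled ratio lay wholly above 1 in 34 members (22.5%), against 15.9% of all tested windows, and wholly below 1 in 8 (5.30%), against 15.6%. The 34 held all 10 of the most abundant members. Among all 330 windows with 100 or more counts, 126 had such an interval above 1 and 81 one below. Outside both clusters the scaled values gave 28 of 100 such intervals above 1 and 12 below, 13 higher calls and 9 lower, and a median of 0.12. No direction of the members is free of the scaling. Their median was below 0 on the raw log2 scale and above 0 on the scaled one. With a prior count, the gap to the large cluster was 0.42 to 0.48 on the log2 scale under every setting run. A scaling moves all windows by nearly the same amount, so it could hardly alter this gap, and only filters and prior counts could.

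**Figure D2:**
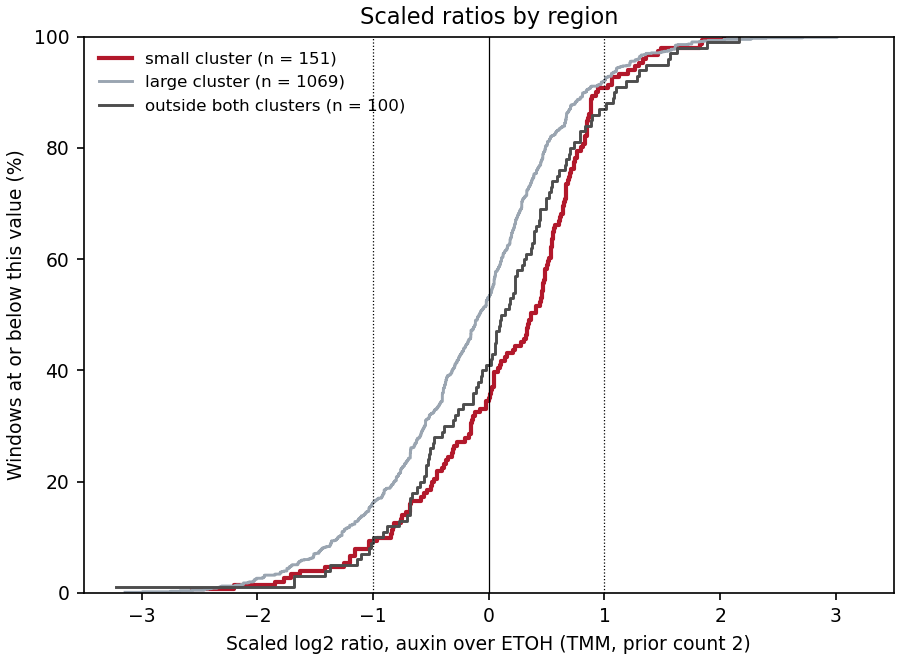
Cumulative share of tested windows (vertical axis, percent) at or below each scaled log2 ratio of auxin over ETOH (horizontal axis), for the small cluster, the large cluster and windows outside both. The curve of the small cluster lies to the right of that of the large cluster over the middle of the range, at medians of 0.36 and −0.08, and the dotted lines mark the 2-fold limits.

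The position of the members relative to the table was seen at each level of abundance. In members with 10 to 19 counts over both columns (52 windows) the median raw log2 ratio was −0.18, beside −0.68 over all windows of that level. It was −0.58 beside −0.85 for 20 to 49 counts (46 members), −0.31 beside −0.72 for 50 to 99 (27 members) and −0.08 beside −0.49 for 100 or more (26 members). Windows under 10 counts, which entered none of these medians, also held fewer counts in auxin: the 468 such members had 644 counts in auxin and 745 in ETOH, a ratio of 0.864 (0.777 to 0.962). The same class of window held 2567 and 3926 counts in the large cluster, a ratio of 0.654 (0.622 to 0.687).

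Beyond the 10 most abundant, 16 members had 100 or more counts, and their raw ratios ran from 0.494 to 1.43 (median 0.953). The lowest was 21ur-9509, in an intron of soc-2, with 43 counts in auxin and 87 in ETOH. The highest was 21ur-7928, in an intron of tat-2 on the opposite strand (IV:4838345-4838365, plus strand), with 67 and 47. In the 27 members with 50 to 99 counts, raw ratios ran from 0.345 to 2.80.

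The 14 members called lower after scaling had 0 to 6 counts in auxin and 9 to 38 in ETOH. All 14 had under 50 counts over both columns, as had 98 of the 151 tested members. Those named here and the higher ones below were picked by their ratios, which are given as a description. The window of 21ur-8750 (IV:5003301-5003321, plus strand), in an intron of the forkhead gene pes-1 on the same strand, had 6 counts in auxin and 38 in ETOH, or 0.248 times as many after scaling (0.0856 to 0.591). The window of 21ur-9703 (IV:6247133-6247153, minus strand), in an intron of the acyl-CoA oxidase gene acox-3 on the same strand, had 4 and 29 counts, or 0.216 times as many after scaling (0.0553 to 0.616). The pair had the most ETOH counts of the windows called lower.

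The window of 21ur-13688 (IV:6971866-6971886, plus strand), 12 bases from the nuclear hormone receptor gene nhr-249, had 0 counts in auxin and 12 in ETOH, which is at least 2.55-fold lower after scaling when 3 counts are taken as the floor of the auxin column, while the interval of the scaled ratio, which covers both columns' counting error, ran from 0 to 0.565. It was the one member with 0 counts in 1 column and 10 or more in the other. The window of 21ur-2426 (IV:5528804-5528824), 466 bases from the netrin receptor gene unc-5, had 1 count in auxin and 16 in ETOH, with an interval of the scaled ratio from 0.00234 to 0.631. The windows of 21ur-6701 (IV:4965539-4965559) and 21ur-265 (IV:5787504-5787524) had 4 and 5 counts in auxin, and 26 and 25 in ETOH. The other 8 windows called lower had 1 to 5 counts in auxin and 9 to 22 in ETOH.

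Of the 14 members called higher after scaling, 12 had under 50 counts over both columns, beside 98 of the 151 tested members. The other 2 were 21ur-7928, described above, and 21ur-4908 (IV:5442300-5442320, plus strand). The last is intronic and sense to mgl-3, which encodes a metabotropic glutamate receptor, and had 70 counts in auxin and 25 in ETOH, a raw ratio of 2.80 (1.75 to 4.61). Another called window, 21ur-954 (IV:5438539-5438559, plus strand), lay 446 bases from mgl-3 and had 20 counts in auxin and 11 in ETOH. A more abundant window in an intron of the same gene, 21ur-1230, had 179 counts in auxin and 191 in ETOH.

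The window of 21ur-7928 in tat-2 had 2.24 times as many counts in auxin as in ETOH after scaling (1.52 to 3.32) and a raw interval that held 1 (0.967 to 2.12). The window of 21ur-5230 (IV:5097964-5097984, minus strand), in an intron of C02B10.3 on the same strand, had 20 counts in auxin and 7 in ETOH, or 4.48 times as many after scaling (1.82 to 12.5). The window of 21ur-3696 (IV:5212725-5212745), in an intron of Y59E9AL.4 on the opposite strand, had 13 and 4 counts. The window of 21ur-4522 (IV:6505526-6505546) had 27 and 17, a raw ratio of 1.59 (0.835 to 3.11). The other 8 windows called higher had 7 to 23 counts in auxin and 3 to 16 in ETOH.

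**Figure D3:**
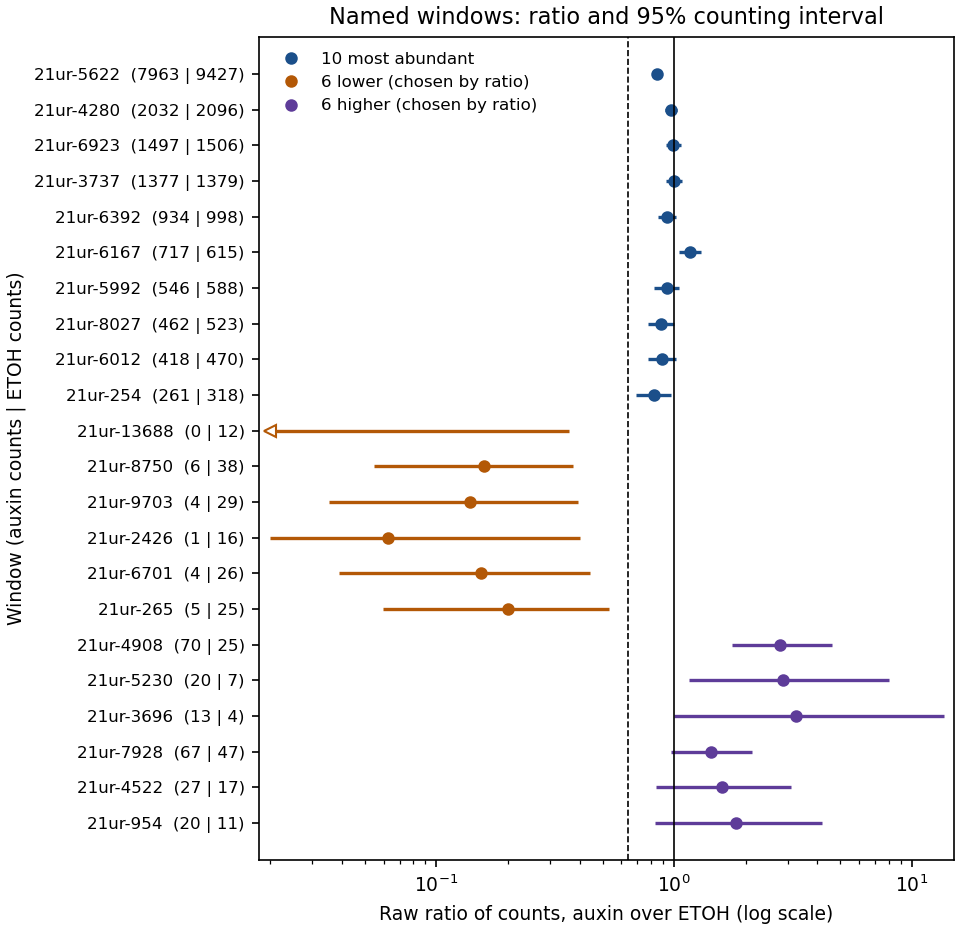
Raw ratio of auxin over ETOH counts (horizontal log axis) with its exact 95% counting interval for the 10 most abundant members, the 6 named lower and the 6 named higher windows, each with its auxin and ETOH counts. The solid line marks equality and the dashed line the TMM ratio of 0.637; the abundant members lie between 0.821 and 1.17 with short intervals, the chosen low-count windows have long ones, and the interval of 21ur-13688 reaches 0 and that of 21ur-2426 0.00149, beyond the left edge.

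Along the cluster, in bins of 0.5 Mb from its left boundary, the density of windows was highest in the middle. The bins held 270, 673, 979, 687 and 230 windows from left to right, and 66, 145, 212, 138 and 58 of these had a count in either column, or 20.1% to 25.2%. The raw ratio of total counts was 0.969 (0.926 to 1.01) in the first bin, 0.942 (0.896 to 0.989) in the second, 0.833 (0.793 to 0.874) in the third, 0.860 (0.837 to 0.883) in the fourth and 0.881 (0.778 to 0.998) in the fifth. All lay below equality, and the interval of the first bin held 1. Without the most abundant window of each bin, a setting chosen after the values were seen, the ratios were 0.953, 0.892, 0.814, 0.920 and 0.835.

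The typical tested window did not follow the totals from bin to bin. From left to right, the median raw log2 ratios were −0.63 in the first bin (18 tested windows), −0.09 in the second (39), −0.51 in the third (50), −0.16 in the fourth (31) and −0.08 in the fifth (13). In the first bin 14 of 18 windows (77.8%) had fewer counts in auxin, against 78.5% of all tested windows and 62.9% of the tested members. That bin also held 3 of the 10 most abundant members, 21ur-6923, 21ur-6392 and 21ur-6167, with ratios of 0.994, 0.936 and 1.17. In the second bin 22 of 39 had fewer (56.4%) and 15 had more. After scaling, 4 of these 39 were called lower and 8 higher, against 14.8% and 8.41% of all tested windows. The third bin, the densest, had 34 of 50 windows with fewer counts (68%) and 10 with more. Whether bins differed beyond the spread between libraries could not be tested.

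**Figure D4:**
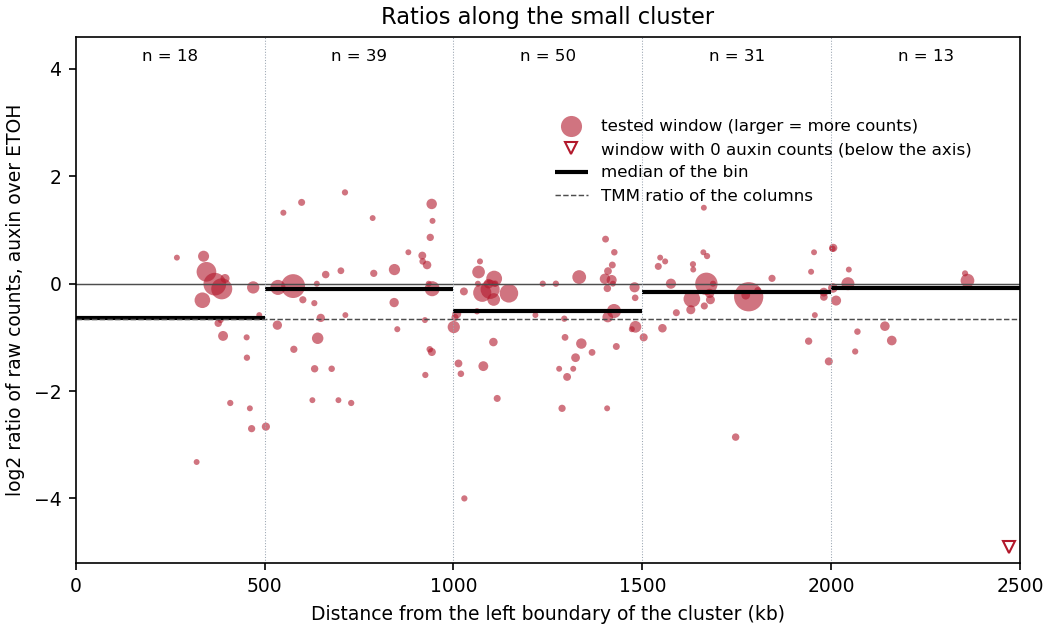
Raw log2 ratio of auxin over ETOH counts (vertical axis) of the 151 tested windows by distance from the left boundary of the cluster (horizontal axis, kb), with larger points for more counts. Bars mark bin medians of −0.63, −0.09, −0.51, −0.16 and −0.08; the largest points lie near equality, and the open triangle is 21ur-13688, with 0 auxin counts.

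Both strands carried precursors in similar number. The 1366 plus-strand members had 13764 counts in auxin and 15888 in ETOH, a ratio of 0.866 (0.847 to 0.886), and the 1473 minus-strand members had 6598 and 7105, a ratio of 0.929 (0.898 to 0.960). The window of 21ur-5622 held 7963 and 9427 of the plus-strand counts. Among tested members the median raw log2 ratio was −0.16 on the plus strand (78 windows) and −0.30 on the minus strand (73 windows), an order opposite to that of the totals.

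By annotation, 1330 members lay in introns, 1313 outside protein-coding genes, 135 lay over coding exons, 52 over untranslated regions and 9 over other exons. The intronic members held 13474 counts in auxin and 15400 in ETOH, a ratio of 0.875 (0.855 to 0.895), and those outside genes 6427 and 7063, a ratio of 0.910 (0.880 to 0.941). Their tested windows had nearly the same median raw log2 ratio, −0.21 in introns (71 windows) and −0.23 outside genes (68 windows), beside −0.63 and −0.68 for the same classes over the whole table. Within introns the median was −0.21 for windows on the strand of the gene (41) and −0.18 for those on the opposite strand (30). Over coding exons 7 of 10 tested members had fewer counts in auxin, beside 73.7% of the tested coding-exon windows of the whole table, with totals of 186 in auxin and 250 in ETOH. A single tested member, 21ur-9348, lay over a structural RNA gene, the small nucleolar RNA C06E7.95, and had 134 counts in auxin and 123 in ETOH.

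The genes with at least 4 tested members, a limit set after the values were seen, are described beside the shares with fewer counts in auxin of 62.9% over the tested members and 78.5% over all tested windows. In unc-5, 6 of 6 tested windows had fewer counts in auxin, and the 100 windows in the gene held 155 counts in auxin and 258 in ETOH, a ratio of 0.601 (0.489 to 0.736). In unc-44, which encodes an ankyrin, 4 of 4 had fewer, with 129 and 182 counts in all. In soc-2, a leucine-rich-repeat scaffold of Ras signalling, 4 of 5 had fewer and none had more, with 99 and 167 counts. In the forkhead gene fkh-7, 3 of 5 had fewer, with 945 and 1007 counts. In unc-77, 4 of 7 had fewer and 3 had more, and 21ur-3737 held 1377 of its 1487 auxin counts and 1379 of its 1503 ETOH counts. More counts in auxin were seen in 3 of 4 windows of the potassium-chloride cotransporter gene kcc-2, whose windows held 65 and 83 counts in all, a ratio of 0.783 (0.557 to 1.10). The same was seen in 2 of 4 windows of mgl-3, which held 273 and 253, a ratio of 1.08 (0.906 to 1.29). Both intervals held 1.

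A count was present in slightly more members in auxin than in ETOH, although the members' total was lower there. In auxin 469 members had a count (16.5%, Clopper-Pearson interval 15.2 to 17.9) and in ETOH 453 (16.0%, 14.6 to 17.4). With at least 3 counts asked for, the order turned, at 228 members in auxin and 247 in ETOH. Of all 15703 windows, 3057 had a count in auxin and 3244 in ETOH, whereas outside both clusters 267 had one in auxin and 246 in ETOH. A count in both columns was found in 303 members, in auxin alone in 166 and in ETOH alone in 150, and 2220 members (78.2%) had none. Over all 15703 windows the same classes held 2270, 787, 974 and 11672 (74.3%). Among windows that overlapped no other, 31.7% of members had a count in either column, against 40.6% over the whole table. Members seen in 1 column had few counts, at most 7 in those seen in auxin alone and 12 in those seen in ETOH alone.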

How the data were processed

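Capped small RNA was measured in germ nuclei of 2 groups, auxin and ETOH, with 3 libraries each. The labels' protocols give a phosphatase step (CIP) followed by decapping with RppH. The deposited counts are whole numbers for each window, not normalized; per the file headers, the authors made them with featureCounts 2.0.3, stranded, with multi-mapping reads included and each read placed by its 5′ base, from 1 merged alignment per group. Precursors of identical sequence may therefore share reads. The build ce11 is named in the submitters' processing notes. The aligner and any use of molecular identifiers are not given in the sources used here; reads without identifiers are not independent molecules, so intervals may be too narrow.

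The columns held 351565 (auxin) and 461069 (ETOH) counts. The 1320 windows whose columns summed to at least 10 counts were scaled over the whole table with TMM in edgeR 4.0.16 (R 4.3.3; log2 CPM with a prior count of 2). Scaled medians and 2-fold calls use these log2 ratios. Medians and 2-fold differences named raw use the ratio of counts with neither scaling nor a prior count. Values given as without scaling keep the prior count of 2. Raw and scaled ratios of named windows carry no prior count. Their 95% intervals are exact conditional binomial intervals. With 1 pooled column per group no p-value was computed.

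Windows were named by rule: the 10 most abundant members, and up to 6 lower and 6 higher called members whose interval lay farthest from no change, plus any with 0 counts in 1 column and at least 10 in the other. Other windows were named to show an extreme or a neighbour, after their values were seen. A window counted as located where its own piRNA was annotated within 200 bases on that chromosome and strand in Ensembl release 115 (WBcel235); no coordinates were converted, and those not located took their gene context from the deposited position. The members, groups and rules were chosen with earlier results of these data known. Upstream motifs were not analysed here. Alternatives were other scalings (column totals, DESeq2 1.42.0 size factors, none), count minimums, a prior count of 0.5, and sets without overlapping, unlocated or abundant windows.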

Additional observations from a re-analysis of the deposited data

How the results depend on the processing

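No paired analysis was possible because merging left 1 column for the 3 libraries of a group; fits with a replicate block, leaving out replicates and DESeq2's Wald test were not run for the same reason. The members' total ratio of 0.886 was 0.914 without the most abundant window and 0.819 without the 10 most abundant. It turned above equality when divided by the ratio of the whole columns (1.16), by the TMM ratio (1.39) or by that of DESeq2 size factors (1.39). Those 3 divisors, 0.762, 0.637 and 0.636, were all below 0.886. They were also below the 0.870 of the large cluster, whose total would turn too. Without 21ur-2844 the ratio of the whole columns was 0.871. The 469 members with a count in auxin and 453 in ETOH became 228 and 247 at 3 or more counts. The 14 lower and 14 higher calls became 35 and 5 without scaling, 19 and 9 with column totals, 54 and 102 at a minimum of 1 count, 6 and 7 at 20, and 0 and 0 at 100, where other windows entered and the scaling was fitted anew. A prior count of 0.5 gave 15 and 21. Over the whole table, 196 lower and 111 higher calls of 1320 became 443 and 37 without scaling, and 258 and 70 with column totals. At minimums of 1, 20 and 100 counts they were 533 and 508 of 4031, 132 and 48 of 922, and 36 and 2 of 330. A prior count of 0.5 gave 218 and 132 over the table. The members at these minimums numbered 619, 99 and 26. The median log2 ratio of 0.36 was −0.22 without scaling, 0.13 with column totals and 0.23 at a minimum of 1 count. DESeq2 size factors, and the removal of overlapping or unlocated windows, left both counts of calls at 14 and the median at 0.36 to 0.40. Of the 6 lower and 6 higher named windows, 3 lost their 2-fold call without scaling and 2 with column totals. All were higher ones: 21ur-7928 and 21ur-4522 in both settings, and 21ur-954 without scaling. The log2 ratios of the other 19 named windows moved without scaling, with no change of call. Among these were the 10 most abundant members, whose log2 ratios were all above 0 after scaling. Without scaling 9 of the 10 lay below 0, and 21ur-6167 stayed above. Depth limits what windows of few counts can show. Of the 28 called members, 26 had under 50 counts over both columns, as had 98 of all 151 tested members.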
